A study of Mus musculus with 2 samples.

Results

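Respiratory complexes II to V of mitochondria were followed in mouse blastocysts of stage E3.75 and in the inner cell mass (ICM) of such blastocysts. The members were all rows of the deposited table whose gene symbol begins as those of succinate dehydrogenase (Sdha to Sdhd, Sdhaf), the cytochrome bc1 complex (Uqcr, Cyc1), cytochrome c (Cycs), cytochrome c oxidase (Cox followed by a digit) or the ATP synthase (Atp5). This rule took 56 of 19559 listed genes. It uses names only and no measured value. There was 1 library of whole blastocysts and 1 library of ICMs dissected by immunosurgery, in which the outer cells are lysed and washed off. Both came from E3.75 embryos of B6CBAF1 females crossed to CD-1 males (number of embryos not given in the sources used here), and no treatment is labelled. With 1 library of each kind there was no replicate, no test and no p-value, and every interval below is a 95% interval for counting error only. Since a blastocyst includes its own ICM, the comparison sets the inner cells against the sum of these cells and the outer layer, the trophectoderm. Paired values below stand in the order whole blastocyst, then ICM.

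Complexes II, III and IV pass electrons from succinate and ubiquinol to oxygen, and complexes III and IV pump protons out of the mitochondrial matrix while doing so. Complex V lets the protons flow back and makes ATP. Cytochrome c carries electrons from complex III to complex IV. Their protein subunits are mostly encoded in the nucleus, and a few are encoded by mitochondrial DNA, whose genes were not analysed here. The trophectoderm of the blastocyst is known for active oxidative metabolism, part of whose ATP drives the sodium pump that fills the cavity.

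Many nuclear genes of respiration have sites for the transcription factor NRF1 or for ETS factors such as GABP just upstream of their start. Promoter windows from RefSeq (build GRCm38.p6, 250 bases before and 50 after the start) were found for 41 of the 56 members. The letters searched on both strands were GCGCA and GCGC with any 1 base between them for NRF1, CCGGAAG for ETS factors and AAGATGGC for YY1. The last 3 letters of the ETS match can be the first 3 of a YY1 match. NRF1 letters were in the windows of 10 members (24.4%), ETS letters in 14 (34.1%) and YY1 letters in 5 (12.2%). Of all 27025 genes with a window, 5.19%, 9.93% and 3.19% held them. Of the 7176 genes with a window and RPKM 1 in either library, 12.8%, 22.5% and 6.03% did. The upstream stretches below belong to members whose values are described next, and capitals mark the NRF1 and ETS letters on either strand. Sdha and Sdhd are subunit genes of the same complex whose ratios of ICM to whole blastocyst differed. Cox6a1 and Atp5h belong to complexes IV and V and were picked because they hold both kinds of letters. Cox6a1 is not typical of complex IV, since no other complex IV member with a window held NRF1 letters. All 4 lie on the minus strand, Sdha at chr13:74350241-74350358, Sdhd at chr9:50603860-50603959, Cox6a1 at chr5:115348959-115349131 and Atp5h at chr11:115419942-115420071.
Sdha: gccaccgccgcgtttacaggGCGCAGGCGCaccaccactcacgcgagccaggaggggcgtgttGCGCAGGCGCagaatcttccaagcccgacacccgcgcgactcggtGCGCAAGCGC
Sdhd: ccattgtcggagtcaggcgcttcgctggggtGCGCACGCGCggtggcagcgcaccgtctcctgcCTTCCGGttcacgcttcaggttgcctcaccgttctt
Cox6a1: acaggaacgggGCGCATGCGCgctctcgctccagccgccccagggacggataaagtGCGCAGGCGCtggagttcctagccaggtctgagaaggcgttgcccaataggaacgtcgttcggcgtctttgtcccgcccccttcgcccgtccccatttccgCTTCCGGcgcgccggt
Atp5h: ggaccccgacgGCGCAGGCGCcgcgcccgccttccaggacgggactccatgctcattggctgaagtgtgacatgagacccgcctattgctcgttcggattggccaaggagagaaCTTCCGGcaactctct
Sdha held the NRF1 letters 3 times, and Sdhd held them once beside 1 ETS match. A match of letters is a description of the window, not a bound site.

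The libraries held 9271198 (whole blastocyst) and 4125479 (ICM) reads on listed genes. Levels are RPKM, that is reads divided by a length in kilobases and by the library's total. A difference is the log2 of ICM over whole-blastocyst RPKM after adding 1 to each. It was taken for the 8981 genes that reached RPKM 1 in either library, and a gene is called lower or higher at 2-fold. Most genes had less RPKM in the ICM, with a median difference of -0.84, so values are also given relative to the shift, which is the median of -0.66 over 3013 genes that reached RPKM 5 in both. The ICM markers fixed for the check of the labels were at least 2-fold higher in 7 of 8 cases, Sox2 being the exception (RPKM 2.47 and 3.60). All 8 trophectoderm markers were lower (7 relative to the shift), their summed RPKM being 1967 and 53.9, with Elf5 at 0 ICM reads. Of 9 listed blood and fibroblast markers, 2 reached the minimum (Cd68 with 22 and 2 reads, Pecam1 with 10 and 220). Hbb-b1, Cd34 and Col1a1 were at 0 in both. The summed RPKM of the list was 3.97 and 6.58, of which Pecam1 alone gave 0.235 and 6.15. Which cells gave the Pecam1 reads was not tested. The part of the lost trophectoderm RNA in the differences below was not tested. In such bulk samples, fewer cells of a type and less RNA per cell cannot be told apart.

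In RPKM as deposited, most members of complexes II to V were lower in the ICM library, as were most genes. Of 44 members that reached RPKM 1, 28 were at least 2-fold lower, compared with 44% of all genes tested, and none was at least 2-fold higher, compared with 8.96% of all genes. The median difference of these members was -1.24, beside -0.84 over all genes. Relative to the shift 7 members were lower and 4 higher (20.5% and 16.9% of all genes), and the median was -0.58, beside -0.19 over all genes. In that scaling the share of lower members was thus under that of all genes, while their median stayed below. Among genes at RPKM 10 or more in whole blastocysts, 28 of 37 members and 55.1% of 3298 genes were lower, with medians of -1.40 and -1.12. That filter uses the whole-blastocyst value alone and so favours genes lower in the ICM. The share over all genes rose with it from 44%. The other 12 members stayed under the minimum in both libraries and are described below with their complexes. The members' summed RPKM was 4928 and 1965, which is 2.76% and 2.14% of the RPKM of all listed genes. The sum in the ICM was thus 39.9% of that in the whole blastocyst, and for all listed genes it was 51.4%. At RPKM 10 or more in whole blastocysts it was 39.6% for members and 47.8% for all genes.

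**Figure D1:**
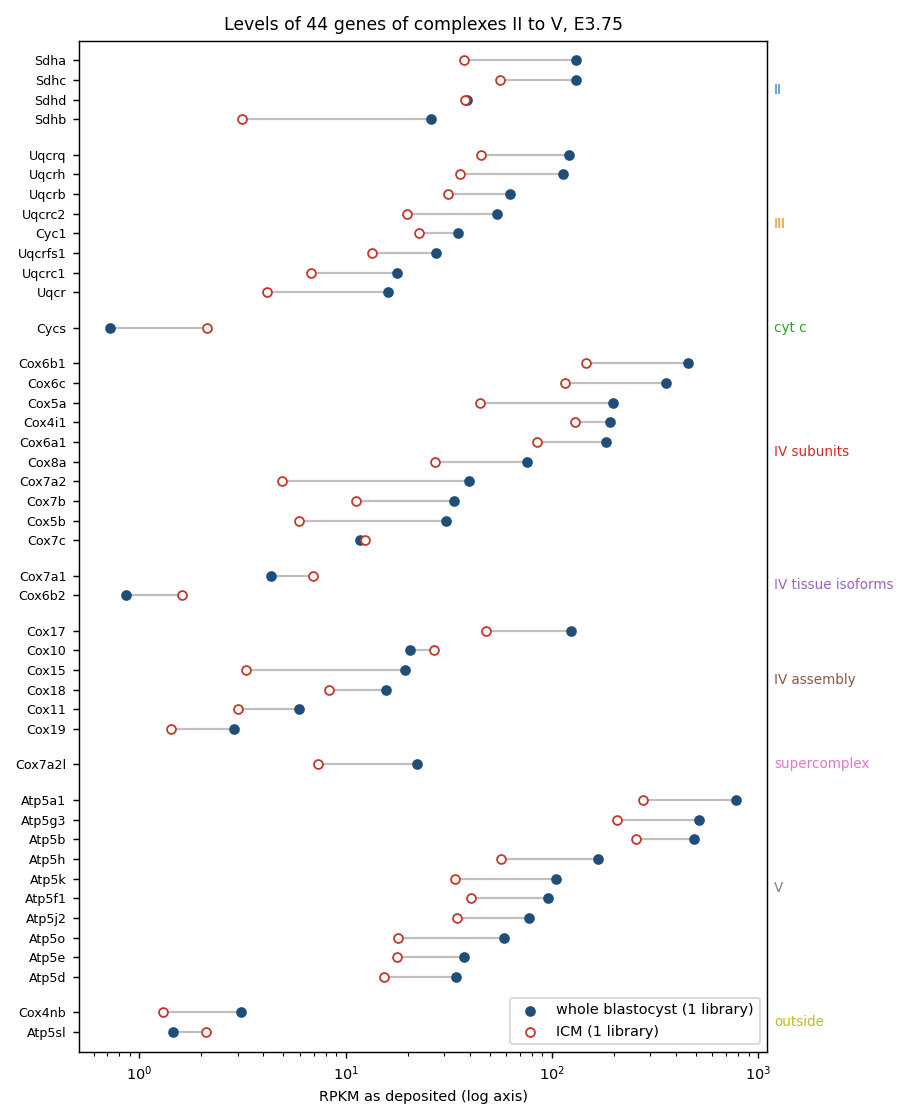
RPKM of the 44 members that reached RPKM 1 (log axis), with filled points for the whole-blastocyst library and open points for the ICM library, grouped by complex. In 38 rows the ICM point lies to the left, and Cycs, Cox7c, Cox7a1, Cox6b2, Cox10 and Atp5sl have it to the right.

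The complexes gave similar sums. The ICM sum was 41.3% of the whole-blastocyst sum for complex II, 40.2% for complex III, 36.9% for the common subunits of complex IV and 40.6% for complex V. The assembly factors of complex IV stood at 48.3%. No error can be put on these sums from 1 library each, so their order is not a result. The counts of lower members were 3 of 4 in complex II, 5 of 8 in complex III, 8 of 10 among the common subunits of complex IV, 2 of 6 among its assembly factors, and 9 of the 10 measured members of complex V, beside the 44% of all genes. Relative to the shift they were 2, 1, 3, 1 and 0 in the same order, and 1 assembly factor of complex IV was higher. Of all genes, 20.5% were lower and 16.9% higher in that scaling.

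**Figure D2:**
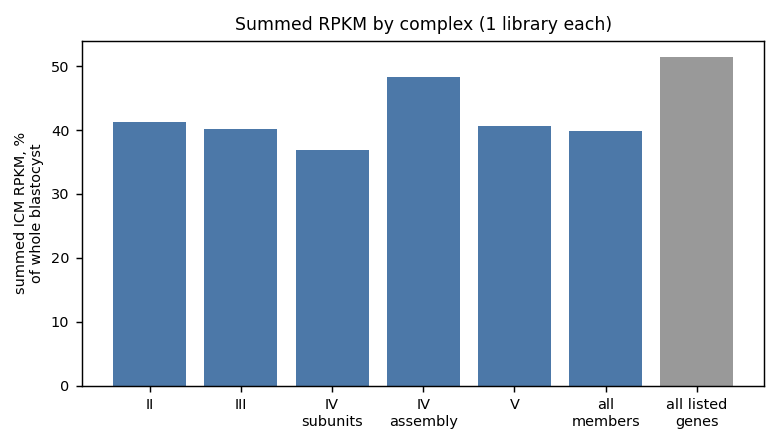
Summed ICM RPKM as a percentage of the summed whole-blastocyst RPKM (bars from 0) for each complex, all 56 members and all listed genes, from 1 library each without error bars. The subunit groups lie between 36.9% and 41.3%, below the 51.4% of all listed genes. For all genes at RPKM 10 or more in whole blastocysts, not drawn, it was 47.8%.

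Complex II held both a strongly depleted and a level subunit. Sdha, the flavoprotein that oxidizes succinate, had RPKM values of 131.5 and 37.7. It was 3.49-fold lower (3.29 to 3.71). Sdhb, the iron-sulfur subunit bound to it, had 26.1 and 3.16, on 196 and 20 reads. It was 8.26-fold lower (5.20 to 13.8), and its difference of -2.70 lay above that of only 5.09% of all genes tested. The membrane anchors differed from each other. Sdhc had 130.4 and 55.8 and was 2.34-fold lower (2.21 to 2.48). Sdhd had 38.6 and 38.1, a ratio of ICM to whole blastocyst of 0.987 (0.916 to 1.06) on 1571 and 1306 reads. Relative to the shift Sdhd stood at 0.64 and Sdhb at -2.05. The window of Sdhb, which was the lowest of the 4, held no NRF1 letters and 1 ETS match.

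The assembly factors of complex II stand in the table under older symbols and so fall outside the rule. Sdhaf1 (deposited as 0610010E21Rik), which helps to mature the iron-sulfur subunit, had 438 reads and 0 reads. With a floor of 3 reads in the ICM library it was 123-fold lower, and its counting interval began at 99.6-fold lower. Sdhaf4 (1110058L19Rik), which acts on the flavoprotein, had 56 and 484 reads and was 10.3-fold higher in the ICM (7.77 to 13.8). Sdhaf2 (0610038F07Rik), needed for attaching the flavin, had an RPKM of 5.64 and 2.55, and Sdhaf3 (Acn9) had 10.4 and 4.40. The 4 factors thus lay on both sides, with differences from -3.47 to 2.99.

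In complex III all 8 members had less RPKM in the ICM. Uqcrq, a small subunit of the complex, had the highest RPKM, 121.8 and 45.3, and was 2.69-fold lower (2.38 to 3.04). Uqcr (current symbol Uqcr11), another small subunit, had 16.03 and 4.17 and was 3.84-fold lower (2.47 to 6.18) on 114 and 25 reads. The hinge protein gene Uqcrh, which binds near cytochrome c1, had 112.7 and 35.9, 3.14-fold lower (2.75 to 3.59). By fold, Uqcr and Uqcrh stood farthest from level among these 8 members.
Nearest to level was Cyc1, cytochrome c1, which had 35.04 and 22.7 and was 1.54-fold lower (1.32 to 1.82), at 0.05 relative to the shift. Uqcrfs1, the Rieske iron-sulfur protein, had 27.5 and 13.4, and its difference of -0.99 fell just short of the call, as did that of the small subunit Uqcrb (62.5 and 31.5) at -0.97, with 25% of the 35-base windows in the last exon of Uqcrb found in pseudogenes. The core proteins Uqcrc1 (17.7 and 6.78) and Uqcrc2 (54.2 and 19.96) were 2.61-fold (1.90 to 3.62) and 2.71-fold (2.42 to 3.05) lower, so their intervals overlap. The small subunit gene Uqcr10, listed as 1110020P15Rik and so outside the rule, had 32.0 and 9.84. It was 3.25-fold lower (2.59 to 4.13), farther than Uqcrh.

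Cycs, somatic cytochrome c, was on the other side. It had 92 and 229 reads, RPKM values of 0.724 and 2.14, and was 2.95-fold higher (2.31 to 3.81). With the pseudocount its difference was 0.86, under the call, and 1.52 relative to the shift. Of the 35-base windows of its last exon, 26.1% also occur in transcripts of other genes, so its reads are uncertain. The table also lists Cyct, the testis form of cytochrome c, which is no member and is named because its values were seen. Cyct had 122 and 0 reads.

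Among the common subunits of complex IV, 8 of 10 were lower and 3 relative to the shift, beside 44% and 20.5% of all genes. Cox7a2 had the lowest difference of the 44 measured members, -2.78. Cox6b1, which binds on the side facing cytochrome c, led the complex with an RPKM of 455.4 and 146.9 and was 3.10-fold lower (2.90 to 3.32). Cox6c, a small membrane subunit, had 358.0 and 115.3, 3.11-fold lower (2.82 to 3.43), a fold within the interval of Cox6b1. Cox7a2, the common form of a small subunit at the contact with complex III, had 39.7 and 4.93. At 650 and 68 reads it was 8.05-fold lower (6.27 to 10.5).
The neighbouring subunits Cox5a and Cox5b came next. Cox5a had 198.1 and 44.7 and was 4.43-fold lower (3.86 to 5.10), and Cox5b had 30.8 and 5.94 and was 5.19-fold lower (3.751 to 7.344). Of the 35-base windows in the last exon of Cox5b, 50.6% occur in another gene, named Cox5b-ps in RefSeq, so its reads are uncertain.
At the other end, Cox4i1, the subunit through which ATP is known to regulate the enzyme, had 191.2 and 129.2. It was 1.48-fold lower (1.38 to 1.59), and at 0.10 relative to the shift. Cox7c had 58 and 52 reads, RPKM values of 11.7 and 12.5 and a ratio of 1.06 (0.718 to 1.57). Its last exon is shared with another gene over 96.6% of windows. The remaining subunits Cox6a1 (183.0 and 84.3), Cox8a (75.5 and 27.0) and Cox7b (33.7 and 11.3) were between 2.17-fold and 2.99-fold lower.

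Of the 7 isoforms of complex IV subunits known from muscle, testis, lung or other tissues, 5 had at most 2 reads in either library. Cox4i2, the lung form, Cox7b2 and Cox8c, forms of the testis, and Cox8b, a form of heart and muscle, had no read. Cox6a2, the heart and muscle form, had 2 and 0 reads. For the 5 of them no 35-base window of the last exon was found in another gene. The 2 isoforms with a signal were Cox7a1, the heart and muscle form, with 23 and 31 reads, and Cox6b2, a testis form, with 7 and 11. The intervals of their ratios, 1.60 (0.903 to 2.87) and 1.87 (0.660 to 5.67), hold 1, so a difference was not detectable at this depth. Cox7a1 had RPKM values of 4.33 and 6.93. The order of its level and that of the common form Cox7a2 is not read here, since the length behind the RPKM of Cox7a2 matches no annotated last exon.

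The assembly factors of complex IV were split. Cox10 and Cox15 act in sequence on the same cofactor: Cox10 makes heme O, and Cox15 turns it into heme A. Cox10 had an RPKM of 20.5 and 26.9, 1.32-fold higher in the ICM (1.18 to 1.47), and Cox15 had 19.4 and 3.30, 5.89-fold lower (5.11 to 6.83). The counting intervals of their ratios lie far apart. The copper chaperone gene Cox17 had 123.4 and 47.7 and was 2.59-fold lower (2.237 to 2.996). The copper-delivery genes Cox11 (5.93 and 3.02) and Cox19 (2.89 and 1.43) and the insertase gene Cox18 (15.7 and 8.32) had differences between -0.84 and -0.68. Cox7a2l, which joins complexes III and IV into supercomplexes, had 22.2 and 7.33 and was 3.03-fold lower (2.62 to 3.53).

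**Figure D3:**
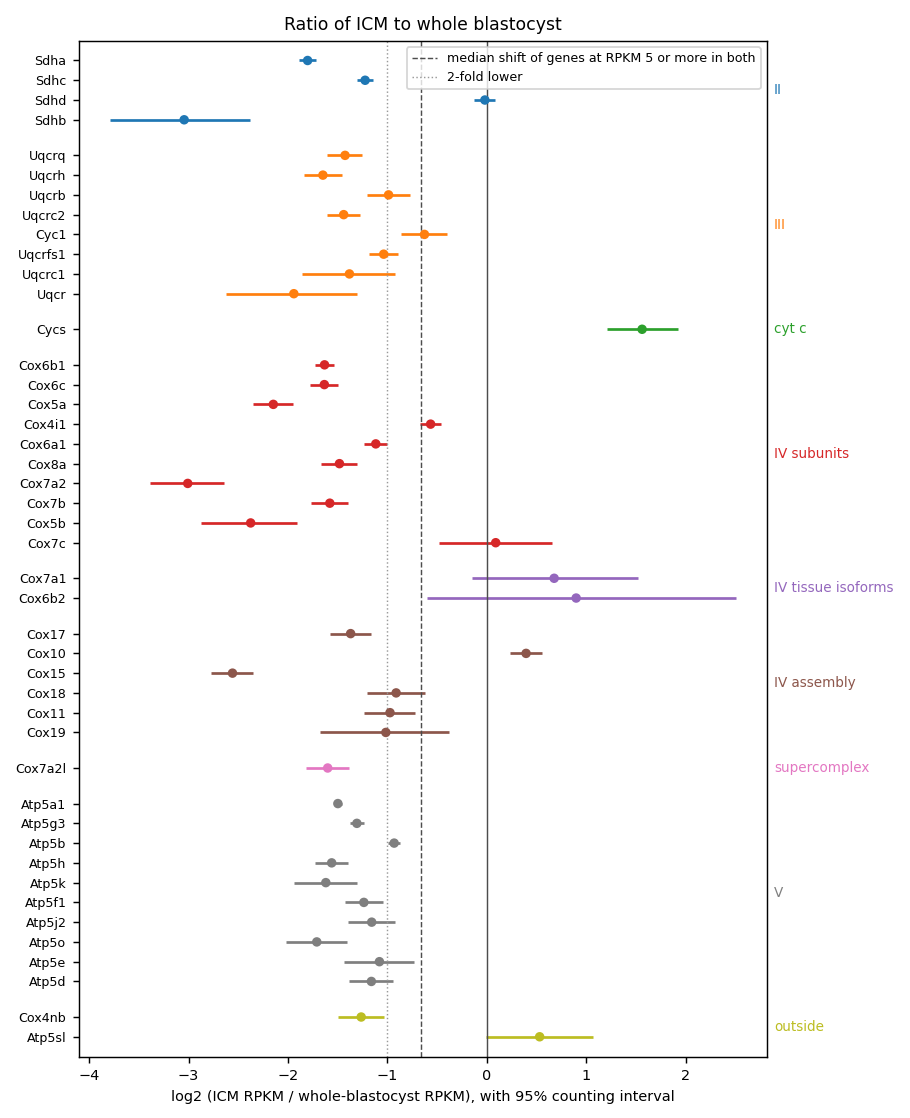
Log2 ratio of ICM to whole-blastocyst RPKM for the 44 measured members, with 95% counting intervals as bars. Dotted, dashed and solid lines mark 2-fold lower, the shift of -0.66 and no difference. Complex V members crowd between 1.91-fold and 3.27-fold lower, while complexes II and IV hold both the lowest points and points near 0.

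The measured members of complex V that the rule took lay within a narrow band. All 10 had differences between -1.66 and -0.93, and relative to the shift none was 2-fold away. The interquartile range of their differences was 0.41, beside 1.10 for complex II, 0.48 for complex III, 0.81 for the common subunits of complex IV and 1.43 for all genes tested. Over the genes with a whole-blastocyst RPKM of 10 or more it was 1.33, and over the 37 members at that level 0.59. Atp5mpl, a small protein of the ATP synthase outside the rule, lay below the band and is given at the end.
In the catalytic head, Atp5a1 (the alpha subunit) had the highest RPKM of all members, 778.4 and 275.5, and was 2.83-fold lower (2.74 to 2.91). Among listed genes it ranked 10 in whole blastocysts and 16 in the ICM library. Its partner Atp5b (beta) had 486.6 and 255.0, 1.91-fold lower (1.83 to 1.99), so the intervals of the 2 partners do not overlap. Atp5d (delta) had 34.2 and 15.3, and Atp5e (epsilon) 37.4 and 17.7, at folds of 2.24 (1.92 to 2.62) and 2.11 (1.67 to 2.70).
In the stalk and membrane part, 5 of 5 measured genes were lower and 0 relative to the shift. Of all genes 44% were lower, and 20.5% relative to the shift. Of those at RPKM 10 or more in whole blastocysts, 55.1% were lower. Atp5o, the stalk protein OSCP, had 58.6 and 17.9 and was 3.27-fold lower (2.66 to 4.06), the farthest of the complex. Atp5k had 104.2 and 33.9 (3.07-fold lower, 2.48 to 3.84), and Atp5h, whose upstream stretch is printed above, 167.6 and 56.8 (2.95-fold lower, 2.64 to 3.31). Atp5f1 (95.4 and 40.5) and Atp5j2 (77.1 and 34.6) were 2.36-fold and 2.23-fold lower. The reads of Atp5h and Atp5f1 are uncertain, since 39.5% and 30.3% of their last-exon windows occur in pseudogenes, and for Atp5o it is 17.4%.

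The c-ring, the rotor through which protons pass, was read from 1 of its 3 genes. Atp5g1, Atp5g2 and Atp5g3 encode the same mature protein with different import sequences. Atp5g3 had 5949 and 2025 reads, RPKM values of 514.3 and 207.8, and was 2.47-fold lower (2.35 to 2.60). Atp5g1 had 1 read in each library and Atp5g2 had 0 and 1. Of the 35-base windows in the last exon, 40.9% of those of Atp5g1 and 98.3% of those of Atp5g2 occur in other genes, and none of those of Atp5g3. The last 120 coding bases, which lie almost wholly in that exon, are shown for how alike the 3 genes are there, with capitals where the 3 genes are not all alike.
Atp5g1: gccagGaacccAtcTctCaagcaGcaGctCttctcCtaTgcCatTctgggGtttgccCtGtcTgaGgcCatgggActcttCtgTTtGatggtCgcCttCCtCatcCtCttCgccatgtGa
Atp5g2: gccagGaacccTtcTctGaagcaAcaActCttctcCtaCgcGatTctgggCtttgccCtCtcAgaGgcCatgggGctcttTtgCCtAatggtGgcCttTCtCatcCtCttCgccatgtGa
Atp5g3: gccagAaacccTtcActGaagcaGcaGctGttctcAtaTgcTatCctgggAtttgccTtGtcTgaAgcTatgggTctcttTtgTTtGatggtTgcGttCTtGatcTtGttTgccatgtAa
The 3 sequences are alike at 89 of 120 bases. Atp5g1 and Atp5g2 share 104, and Atp5g3 shares 98 with Atp5g1 and 92 with Atp5g2.

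Other subunits that the enzyme needs were also near 0. Atp5l had no read in either library, with 65.3% of last-exon windows found in other genes, among them 16 pseudogenes. Atp5j, a stalk subunit, had 2 and 1 reads with 4.40% of windows shared. Atp5c1, the gamma subunit of the rotor shaft, had 31 and 6 reads, RPKM values of 0.864 and 0.199, with 36.1% shared. That share is of an annotated last exon of 153 bases, while its RPKM implies 799. The handling of multiply mapping reads was not given in the sources used here. Whether these counts reflect low expression was not tested. Their link with shared sequence was not tested beyond these values: of 46 members with 10 or more reads in a library, 7 also had 25% or more of windows shared, and 30 had none. The other members under the minimum were Atp5l2, a pseudogene in RefSeq, with no read, and Atp5s (current symbol Dmac2l), with 37 and 28 reads.
The rule took 2 more genes that are no part of these complexes. Cox4nb (current symbol Emc8), a neighbour of Cox4i1 that encodes a protein of the endoplasmic reticulum, had 3.13 and 1.30. Atp5sl (Dmac2), a factor for complex I assembly, had 1.46 and 2.12.

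**Figure D4:**
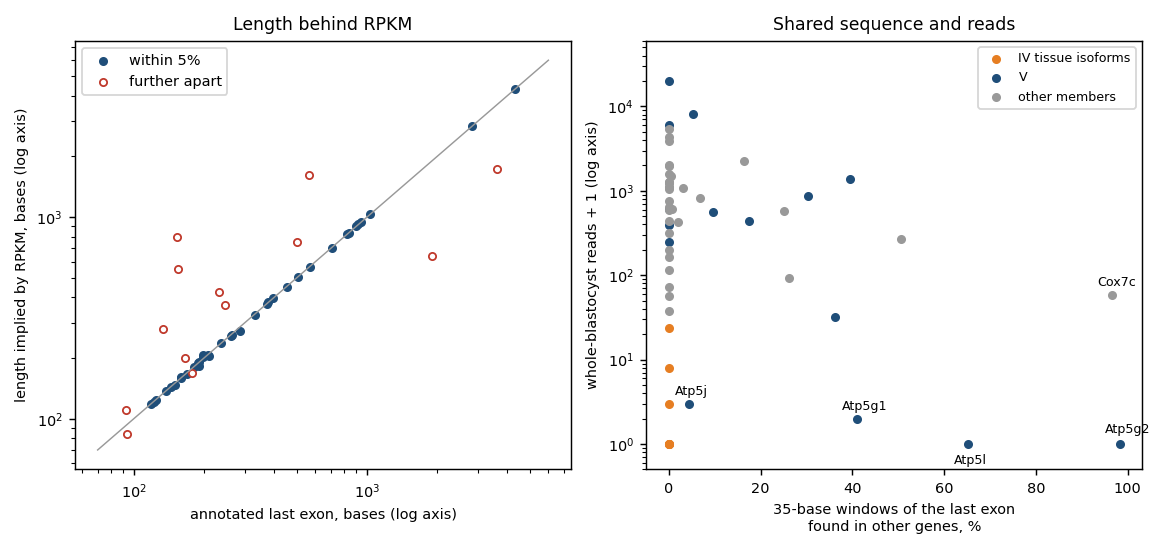
Left, length implied by the deposited RPKM against the annotated last exon in bases (log axes) for 50 members with reads, with the line of equality; filled points (37) lie within 5%. Right, whole-blastocyst reads plus 1 (log axis) against the percentage of 35-base windows of the last exon found in other genes; Atp5l, Atp5g1 and Atp5g2 lie low with high shares, Atp5j lies low at 4.40%, and the tissue isoforms of complex IV lie at 0%.

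What length stands behind RPKM bears on every comparison of levels between genes. Reads divided by RPKM give that length up to 1 common factor. Over 8957 genes with 20 or more whole-blastocyst reads and 2 or more exons, it lay within 5% of the last exon of the longest annotated transcript for 6203 genes (69.3%), and within 5% of the whole transcript for 474 (5.29%). Among the members, 37 of 50 lay within 5% of an annotated last exon. Levels given here are thus mostly per kilobase of last exon, such as 169 bases for Sdhb and 920 for Sdha. A ratio between libraries does not depend on this length. Whether counting was limited to that exon, too, was not given in the sources used here. For Cox7c, Atp5c1, Atp5f1, Atp5g1 and Atp5o the implied length lay within 5% of no annotated last exon. Their shares of windows may thus describe another stretch than the one behind RPKM.

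Among the members the order of levels was much the same in both libraries. Over the 42 members that reached RPKM 1 in both, the Pearson correlation of log2 RPKM was 0.92 and Spearman's rho 0.93. Over the 6036 genes at that level it was 0.75 and 0.72. These are descriptions across genes, which share the library and are not replicates. In each library the top 4 of the members by RPKM included Atp5a1, Atp5b and Atp5g3, and Cox6b1 was the other one. Of the measured members with a promoter window, the 8 with NRF1 letters had a median difference of -1.42 and the 25 without had -1.14, with ranges that overlap. For ETS letters the medians were -1.57 (12 members) and -1.14 (21 members). YY1 letters went the other way, with -0.40 (4 members) and -1.45 (29 members), and these ranges overlap too. The 4 were Cox10 (0.38), Atp5sl (0.34), Atp5j2 (-1.14) and Atp5f1 (-1.22), and Atp5sl is no part of these complexes.

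Other mitochondrial genes are read against the same 44% of all genes lower, and 20.5% lower and 16.9% higher relative to the shift. Complex I symbols (Nduf) were lower in 24 of 38 measured genes (63.2%), with a median of -1.17. Relative to the shift 12 were lower and 2 higher. Mitochondrial ribosomal proteins (Mrpl and Mrps) were lower in 38 of 70 (54.3%), with a median of -1.22, and relative to the shift 19 were lower and 8 higher. The tricarboxylic acid cycle feeds complex II with succinate. Of 18 genes of this cycle and of the pyruvate dehydrogenase complex, taken as 1 list, 12 were lower and none higher. The median of the list was -1.73, and relative to the shift 10 were lower and 1 higher. Idh2, mitochondrial isocitrate dehydrogenase, was 27.6-fold lower (14.3 to 61.0) on 295 and 9 reads, and Pdhb, of the pyruvate dehydrogenase complex, had 80.3 and 12.3. Pdhx of that complex (8.48 and 13.0) and Sucla2, a succinyl-CoA ligase subunit (28.9 and 34.7), were at the other end.
Among assembly factors and regulators outside the rule the pattern was mixed. Of 4 complex III assembly genes none was called, from Lyrm7 (122 and 23 reads) to Bcs1l (13 and 29 reads). Of 8 measured genes listed for complex IV assembly 5 were lower (1 relative to the shift), among them Lrpprc (252.3 and 75.9), which stabilizes mitochondrial mRNA. Surf1 had 8.22 and 7.48, and Pet112l, which acts in mitochondrial translation and not in assembly, 8.70 and 8.24. Of 4 complex V genes 2 were lower (0 relative to the shift), the inhibitor Atpif1 (205.2 and 66.0; 3.11-fold lower, 2.85 to 3.39) and the assembly factor Atpaf1 (80 and 3 reads).
Of 13 measured genes of mitochondrial biogenesis 6 were lower (46.2%, near the share of all genes), and 3 relative to the shift. Nrf1 itself had 355 and 33 reads and was 9.06-fold lower (6.34 to 13.4), and Ssbp1, which coats single-stranded mitochondrial DNA, had 19.2 and 1.96. The ETS factor gene Gabpa had 29.4 and 24.8, the mitochondrial transcription factor gene Tfam 5.05 and 3.99, and Ppargc1a no read. Of 15 import genes 8 were lower (2 lower and 1 higher relative to the shift), with Timm9 lowest (546 and 23 reads). Of 14 genes of inner membrane structure and carriers 7 were lower (3 relative to the shift), with Afg3l2 lowest (283 and 25 reads) and Phb, prohibitin, at 2.02 and 2.42. At 53.3% and 50%, both lists lie near the share of all genes.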

How the data were processed

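For each library the authors deposited, in 1 table, read counts and RPKM values by gene symbol. Per the labels' protocols, RNA was amplified with the NuGEN Ovation system and sequenced as SOLiD fragment libraries. Per the submitters' processing notes, build mm9 was used. Aligner, annotation and treatment of reads with several positions were not given in the sources used here. From RPKM per read, the total that the authors divided by was 0.842 times as large for the ICM. Amplified reads are not independent molecules, so intervals cover counting error only.

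Differences used a pseudocount of 1 and a minimum RPKM of 1, which understates changes of low genes. Ratios carry exact conditional (Clopper-Pearson) 95% intervals from the counts, with a floor of 3 reads for a library at 0. The computation was tested on simulated counts. Gene models, and the windows of 35 bases compared with all other annotated transcripts at other loci, came from GENCODE M21 (GRCm38), used for lengths and sequence only, with SciPy 1.17.1 and pandas 2.3.3 under Python 3.11.15.

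All 56 members matched a RefSeq symbol or synonym. The members and lists were chosen with earlier results of these data known. Every member may be named; other lists are shown by their extreme genes. Alternatives were the scaling, the pseudocount, the filter and subsets of members.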

Additional observations from a re-analysis of the deposited data

How the results depend on the processing

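Counts and medians depended mostly on the scaling between the libraries. The 28 lower members became 7 relative to the shift, 5 when scaled to the listed gene reads and 5 in TPM, and the count of higher members went from 0 to 4, 5 and 7. The minimum admitted 44, 45 and 48 members in these settings, so the last 2 counts are not over the same members. With a pseudocount of 0.1, 1 member was higher (Cycs). In the same order of settings the median of -1.24 became -0.58, -0.31 and -0.28, that of complex II -0.84, -0.59 and -0.55, that of complex III -0.67, -0.47 and -0.44, that of complex IV -0.57, -0.32 and -0.28, and that of complex V -0.60, -0.35 and -0.28. Over all genes the median was -0.19, -0.05 and -0.11 in these settings, with 20.5%, 24.6% and 31.4% of genes lower and 16.9%, 20.3% and 24.7% higher. A pseudocount of 5 moved the median of complex III to -1.07. Of 44 single members, 38 had a negative difference as measured, 35 relative to the shift, 34 when scaled to the listed gene reads and 33 in TPM. Leaving out members whose last exon shares windows with a pseudogene annotated as such in GENCODE left 34 measured members, 23 of them lower. Differences at low counts were not detectable at this depth, as for Cox6b2 and Cox7c. No paired analysis was possible because each group has 1 library.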

Other observations

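Further genes of the complexes stand in the table under older symbols. Atp5mpl (2010107E04Rik), a small protein of the ATP synthase, had RPKM values of 112.0 (whole blastocyst) and 16.3 (ICM) and was 6.88-fold lower (5.59 to 8.56), farther than any measured complex V member of the rule. The complex IV assembly genes Cox14 (2310016M24Rik; 27.3 and 7.95) and Cox20 (2310005N03Rik; 56.4 and 16.9) were 3.44-fold and 3.33-fold lower, and Cox16 (1810020G14Rik) had 7.30 and 4.24. Usmg5 (current symbol Atp5md) had no read. Of the 10 genes under older symbols 9 reached RPKM 1, of which 6 were at least 2-fold lower and 1, Sdhaf4, was higher (44% and 8.96% of all genes tested). Relative to the shift 4 were lower and 1 higher.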
